A study of Mus musculus with 2 samples.

Results

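Olfactory and vomeronasal receptor genes lie in long gene clusters best known from the sensory neurons of the nose, and the macrophage peaks of histone H4 lysine 16 acetylation (H4K16ac) in those clusters are described here. A peak belonged to the set if its summit lay within 20 kb of a mouse gene whose symbol starts with Olfr or Vmn and more than 1 kb from both ends of every other protein-coding gene. The KAT8-deficient list held 645 such peaks of 55149 (1.17%), and the wild-type list held 466 of 58229 (0.800%), which makes 1111 of 113378 peaks in all. No measured value chose them.

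H4K16ac was mapped by CUT&Tag, in which an antibody guides a transposase to cut and tag DNA beside the modified histone. The cells were primary macrophages grown from mouse bone marrow with M-CSF (20 ng/ml), and both groups were stimulated for 2 h with R848 (100 ng/ml), an agonist of the endosomal receptor TLR7. The groups were KAT8-deficient cells, labelled KAT8-cKO, and wild-type cells, with 1 library and 1 peak list each. The sources used here do not give the promoter that drives the deletion, the age and number of animals or how complete the deletion was. With 1 library per genotype there is no replicate error and no test between genotypes. Intervals below are 95% intervals that cover the counting of peaks or genes only and take peaks as independent. Read totals are not known, and a count of peaks depends on the depth and background of its library, so counts of both lists are set side by side as counts.

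Olfactory receptors (Olfr genes) and the vomeronasal receptors of the Vmn1r and Vmn2r families are G protein-coupled receptors for odours and pheromones. Each sensory neuron of the nose expresses very few of them, and in most other cells the clusters are silent, heterochromatic gene arrays with many pseudogenes. KAT8, also called MOF, is the main enzyme behind H4K16ac in mammals, and this mark loosens the packing of nucleosomes and is common over active genes.

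The gene table held 2065 receptor genes with usable positions, of which 1427 were Olfr, 367 Vmn1r and 271 Vmn2r. It listed 1461 of them as protein coding and 604 as pseudogenes or other types. Sequence that met the rule covered 50.5 Mb of the autosomes, or 2.10% of their annotated span. Receptor genes no more than 500 kb apart were joined into 119 clusters, 43 of which hold a single gene.

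Windows at annotated gene starts set these genes apart from genes with CG-rich promoters. The 300-base promoter windows of RefSeq (GRCm38.p6, from 250 bases before to 50 after the annotated start) were matched by symbol to 1267 receptor genes. Annotated receptor genes have a median length of 945 bp, so many models hold little more than the coding part. Their true start may lie farther away, and such a window is then not the promoter. Receptor promoter below means this window. A receptor promoter held a median of 1 CG dinucleotide, against 7 over all 32851 promoters in the table, and its median GC content was 35.7%, against 52.7%. Of 1272 receptor promoter windows, 9 were overlapped by a peak of the set, and the share among other promoters was not counted. The first sequence below is from the single promoter that was overlapped in both lists, and it was also the receptor promoter with the most CG. The next 2 are Olfr promoters overlapped in 1 list each, and the last 2 are from a Vmn1r cluster on chromosome 7 whose copies are nearly alike. Capitals mark CG dinucleotides.
Vmn2r29: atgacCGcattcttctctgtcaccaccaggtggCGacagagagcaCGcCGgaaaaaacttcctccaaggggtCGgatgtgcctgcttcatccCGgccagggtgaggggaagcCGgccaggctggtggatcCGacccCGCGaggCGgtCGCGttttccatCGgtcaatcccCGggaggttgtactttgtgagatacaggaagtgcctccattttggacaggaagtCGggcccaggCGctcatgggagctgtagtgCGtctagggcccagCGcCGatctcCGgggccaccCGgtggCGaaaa
Olfr1415: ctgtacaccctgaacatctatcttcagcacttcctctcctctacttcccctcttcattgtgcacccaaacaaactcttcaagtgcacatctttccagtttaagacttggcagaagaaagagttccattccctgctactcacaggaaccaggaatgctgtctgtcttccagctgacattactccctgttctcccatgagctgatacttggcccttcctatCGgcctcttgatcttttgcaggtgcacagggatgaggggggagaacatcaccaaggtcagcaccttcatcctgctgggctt
Olfr1412: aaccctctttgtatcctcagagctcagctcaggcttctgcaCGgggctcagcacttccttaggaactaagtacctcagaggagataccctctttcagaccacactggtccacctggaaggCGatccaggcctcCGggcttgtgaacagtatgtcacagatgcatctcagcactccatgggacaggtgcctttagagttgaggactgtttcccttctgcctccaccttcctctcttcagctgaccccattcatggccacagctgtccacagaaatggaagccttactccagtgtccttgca
Vmn1r242: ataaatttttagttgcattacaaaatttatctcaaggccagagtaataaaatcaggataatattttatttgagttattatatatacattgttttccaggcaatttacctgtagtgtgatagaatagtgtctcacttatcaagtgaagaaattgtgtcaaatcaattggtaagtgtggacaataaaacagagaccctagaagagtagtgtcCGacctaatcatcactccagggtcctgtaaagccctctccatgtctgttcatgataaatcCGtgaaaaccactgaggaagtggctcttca
Vmn1r246: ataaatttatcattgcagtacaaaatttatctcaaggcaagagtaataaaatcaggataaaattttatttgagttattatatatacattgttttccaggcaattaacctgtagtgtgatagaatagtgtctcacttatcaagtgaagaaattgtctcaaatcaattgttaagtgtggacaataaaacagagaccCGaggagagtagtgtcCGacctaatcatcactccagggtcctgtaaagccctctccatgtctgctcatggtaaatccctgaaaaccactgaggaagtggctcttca

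The window of Vmn2r29 (chr7:7278240-7278539, minus strand) held 23 CG dinucleotides and had a GC content of 62.3%, and the receptor promoter with the next most CG, that of Olfr212, held 13. Of all promoters in the table, 78.5% held fewer CG than that of Vmn2r29. The window of Olfr1415 (chr1:92491704-92492003, minus strand) held 1 CG and was overlapped in the KAT8-deficient list, by a peak of fold 3.20. The window of Olfr1412 (chr1:92588082-92588381, plus strand) held 3 CG and was overlapped in the wild-type list, by a peak of fold 3.18. Neither was overlapped in the other list. Their GC contents, 49.7% for Olfr1415 and 53.7% for Olfr1412, were above the Olfr median of 35.0%, and Olfr promoters held a median of 1 CG. The windows of Vmn1r242 (chr7:20233779-20234078, minus strand) and Vmn1r246 (chr7:20576192-20576491, minus strand) differed at 14 of 300 bases and were 95.3% identical. They were overlapped in the KAT8-deficient list, by peaks of fold 2.94 and 2.68. Folds are the peak caller's, over its own background, as the authors deposited them, and are used here to describe and rank peaks within a list.

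A pair of motifs was searched on both strands of these windows. The core recognised by the early B-cell factor family, which is tied to olfactory neurons, was in 0.393% of receptor promoters, against 0.904% of all promoters. Where a receptor window is not the true promoter, a missing match says nothing about that promoter. GAGGAAGT, a core of the type bound by the macrophage factor PU.1 and other ETS proteins, was in 6.68% of receptor promoters, against 3.20% of all promoters. The excess of the second lay in Vmn1r promoters, of which 35.9% held it, against 0.738% of Olfr and 3.39% of Vmn2r promoters, and many of these are near-identical copies. Of the windows printed above, all but that of Olfr1412 hold it. Both Vmn1r windows have it in the run ctgaggaagtggctcttca near their 3′ ends, and those of Vmn2r29 and Olfr1415 have it on the other strand. The motifs do not overlap each other in sequence, and a match is a description of the letters, not of binding.

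Peaks were sparser in receptor clusters than on autosomes as a whole in both lists. The KAT8-deficient list had 12.7 peaks per Mb of receptor cluster (interval 11.8 to 13.7) and 22.6 per Mb of all autosomal sequence. The wild-type list had 9.10 per Mb of receptor cluster (8.29 to 9.98) and 23.8 per Mb of autosomal sequence. Receptor cluster density was therefore 0.562 of the autosomal average in KAT8-deficient cells (0.520 to 0.608) and 0.382 in wild-type cells (0.348 to 0.419). Since the rule leaves out sequence near the ends of other genes, where peaks are densest, the fairer average is that of autosomal sequence more than 1 kb from such ends. Against it the ratio was 0.659 in KAT8-deficient cells (0.610 to 0.712) and 0.450 in wild-type cells (0.411 to 0.493). Against this second average the depletion was not seen among strong peaks. Counting only peaks with a −log10 q of at least 5, where q is the peak caller's false discovery estimate, the ratio was 1.09 in KAT8-deficient cells (0.789 to 1.51) and 0.963 in wild-type cells (0.701 to 1.32). Over all autosomal sequence, gene ends included, strong peaks were still sparser in the clusters. That ratio was 0.674 in KAT8-deficient cells (0.487 to 0.932) and 0.458 in wild-type cells (0.334 to 0.627).

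The wider surroundings of the receptor genes were not sparse. Sequence from 20 to 500 kb from the nearest receptor gene, also away from gene ends, is called the flanks here. It takes in wide gaps between receptor genes of 1 cluster, and bodies of other genes. The flanks held 27.0 peaks per Mb in the KAT8-deficient list and 29.3 in the wild-type list, above the autosomal average of each list. The density inside the clusters was 0.472 of that in the flanks in KAT8-deficient cells (0.433 to 0.514) and 0.311 in wild-type cells (0.282 to 0.343). Windows within 1 kb of the ends of other protein-coding genes held 134 peaks per Mb in KAT8-deficient cells and 145 in wild-type cells. Gene deserts, defined as sequence more than 50 kb from any protein-coding gene other than a receptor, held 8.97 peaks per Mb in KAT8-deficient cells and 8.35 in wild-type cells. Receptor clusters were thus close to deserts in the wild-type list, at a ratio of 1.09 with an interval of 0.992 to 1.20, and denser than deserts in the KAT8-deficient list, at 1.42 with an interval of 1.31 to 1.54. Without the Vmn1r cluster of chromosome 7 described below, the ratio to deserts was 1.18 (1.08 to 1.29) in KAT8-deficient cells and 1.07 (0.971 to 1.18) in wild-type cells. Without that cluster and a pair of clusters on chromosome 4, the clusters of all chromosomes held 8.47 peaks per Mb in KAT8-deficient cells and 7.45 in wild-type cells. These clusters were left out after their high counts were seen, while the deserts, counted on autosomes, kept their densest loci. The last values therefore cannot show whether receptor clusters are sparser than deserts.

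**Figure D1:**
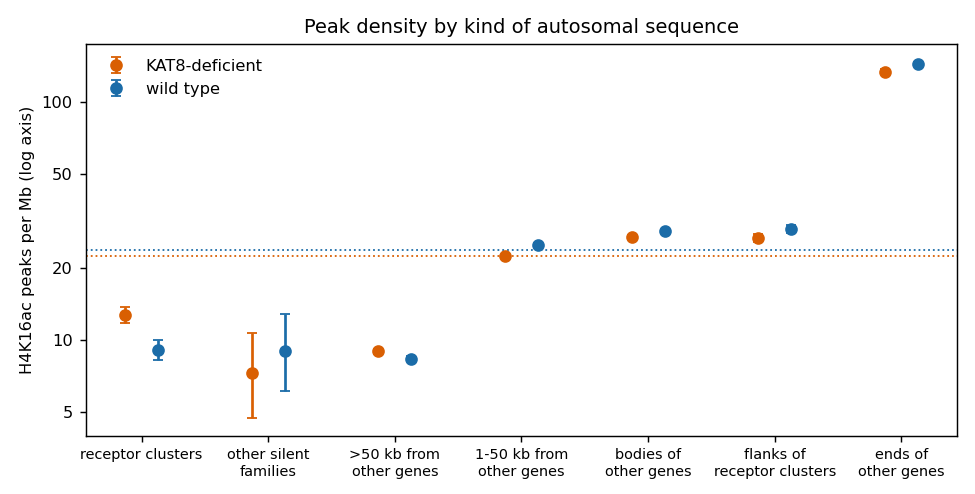
Peaks per Mb in receptor clusters and in other classes of autosomal sequence, on a log axis, for the KAT8-deficient and the wild-type list, with exact Poisson 95% intervals and dotted lines at the autosomal averages. In KAT8-deficient cells receptor clusters stand at 12.7 peaks per Mb, above the deserts at 8.97 and below the flanks at 27.0, and in wild-type cells they stand at 9.10, near the deserts at 8.35 and below the flanks at 29.3.

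Density was lower farther from other genes, counted outside gene bodies. Receptor cluster sequence up to 20 kb from another protein-coding gene had 25.3 peaks per Mb in the KAT8-deficient list, and the rest of the genome at that distance had 25.1. Beyond 200 kb it had 5.92 peaks per Mb, against 6.11 elsewhere. At the 4 distances compared, the KAT8-deficient ratios of clusters to the rest were 1.01, 0.914, 1.01 and 0.969, from near to far. In the wild-type list the same ratios were 0.716, 0.510, 0.661 and 0.851. In that list the clusters held fewer peaks than sequence equally far from genes, with intervals below 1 in every band but the farthest (0.692 to 1.04). The near-equality in the KAT8-deficient list rested largely on a Vmn1r cluster on chromosome 7, described below. Without it the KAT8-deficient ratios were 0.850, 0.619, 0.784 and 0.977, and the wild-type ratios were 0.721, 0.550, 0.605 and 0.839. Without the pair of chromosome 4 clusters as well, the ratios were 0.545, 0.517, 0.701 and 0.977 in KAT8-deficient cells and 0.525, 0.479, 0.546 and 0.839 in wild-type cells. The few stretches of receptor cluster inside other genes, 1.58 Mb in all, held 44.2 peaks per Mb in KAT8-deficient cells and 41.7 in wild-type cells.

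**Figure D2:**
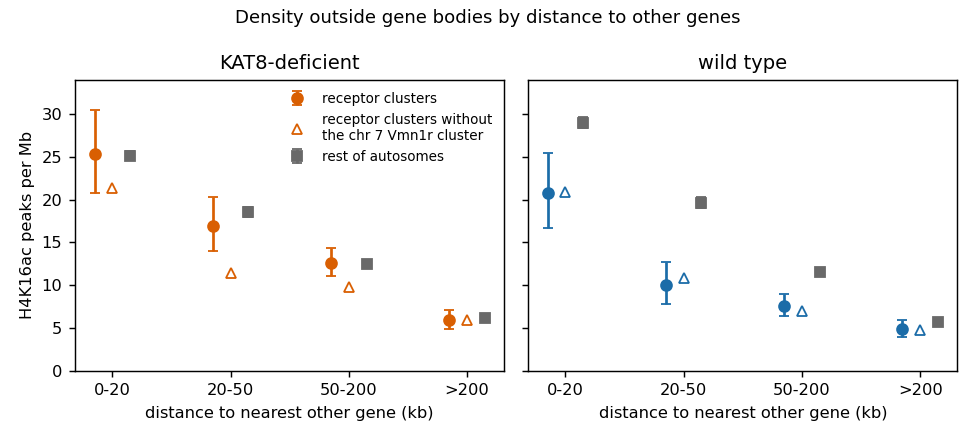
Peaks per Mb against distance from the nearest protein-coding gene other than a receptor, outside gene bodies, in receptor clusters (circles), in receptor clusters without the chromosome 7 Vmn1r cluster (open triangles) and in the rest of the autosomes (squares). Bars are exact Poisson 95% intervals, and the panels are KAT8-deficient on the left and wild type on the right. Beyond 200 kb the clusters held 5.92 peaks per Mb in KAT8-deficient cells and 4.88 in wild-type cells, and the rest held 6.11 in KAT8-deficient cells and 5.74 in wild-type cells.

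The 3 receptor families differed in density. Sequence near Olfr genes was the sparsest, with 7.47 peaks per Mb (216 peaks) in KAT8-deficient cells and 6.71 (194 peaks) in wild-type cells. Near Vmn2r genes, whose receptors have long extracellular domains and several exons, the density was 15.5 per Mb in KAT8-deficient cells and 12.6 in wild-type cells. Near Vmn1r genes it was 24.0 per Mb in KAT8-deficient cells and 11.2 in wild-type cells. Single loci carried much of the last 2 families. Leaving out the chromosome 7 cluster, the Vmn1r values were 13.5 per Mb in KAT8-deficient cells and 11.0 in wild-type cells. Leaving out the pair of chromosome 4 clusters, the Vmn2r values were 8.24 per Mb in KAT8-deficient cells and 7.30 in wild-type cells, close to those near Olfr genes. Peaks nearest a Vmn2r gene lay mostly by pseudogenes, 154 of 205 in the KAT8-deficient list and 124 of 167 in the wild-type list. This rested on the chromosome 4 pair, without which 53 of 104 KAT8-deficient and 49 of 92 wild-type peaks lay by pseudogenes. Most peaks nearest an Olfr gene lay by protein-coding ones, 164 of 215 in the KAT8-deficient list and 154 of 193 in the wild-type list. Of the genes themselves, 1109 of 1427 Olfr and 123 of 271 Vmn2r genes are protein coding. The Olfr values, and the Vmn2r values without the chromosome 4 pair, were thus close to the make-up of each family.

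Of the 119 clusters, 34 held no peak of the set in either list, 46 held none in the KAT8-deficient list and 41 none in the wild-type list. Among the 15 clusters with at least 1 Mb of sequence, 11 had more peaks in the KAT8-deficient list, 3 had more in the wild-type list and 1 had equal numbers. Several of these differences were of 1 peak. The median density of the 15 clusters went the other way, at 5.54 per Mb in KAT8-deficient cells and 6.01 in wild-type cells. The largest, 293 Olfr genes on chromosome 2 from 85330967 to 90401674, held 18 peaks (3.68 per Mb) in KAT8-deficient cells and 14 (2.86 per Mb) in wild-type cells. The lowest densities in clusters of this size were 2.79 per Mb for KAT8-deficient cells, among 51 Olfr genes on chromosome 9 from 18754692 to 20336094, and 1.85 per Mb for wild-type cells, among 52 Olfr genes on chromosome 7 from 107814586 to 108894405. In the chromosome 9 cluster both lists had 4 peaks, and in the chromosome 7 cluster the KAT8-deficient list had 6 and the wild-type list 2. The cluster of 158 Olfr genes on chromosome 7 from 102476773 to 105369317, which encloses the genes for the beta chains of haemoglobin, held 31 peaks in KAT8-deficient cells and 18 in wild-type cells.

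**Figure D3:**
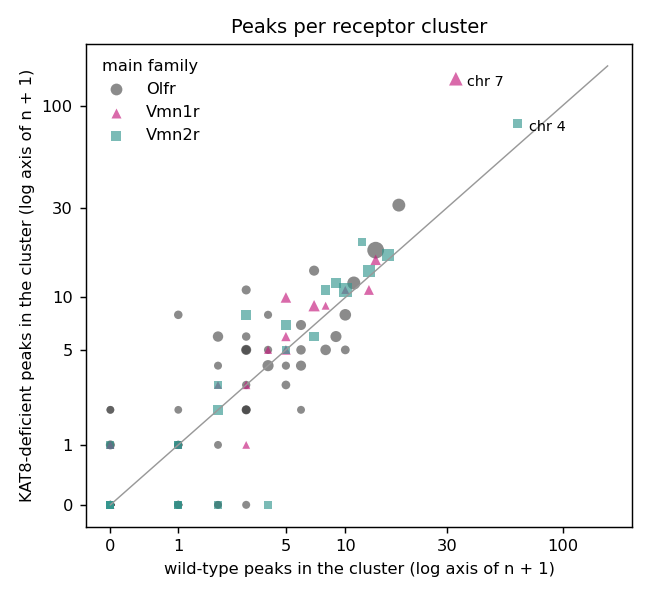
KAT8-deficient peaks (vertical axis) against wild-type peaks (horizontal axis) of the set per receptor cluster, on log axes of the count plus 1, with larger markers for clusters with more sequence and a line of equal counts. Colour and shape give the main receptor family. The chromosome 7 Vmn1r cluster stands apart with 137 KAT8-deficient and 33 wild-type peaks.

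Clusters with the most peaks were few. A pair of clusters on chromosome 4, from 145701675 to 146605510 and from 147126167 to 147521814, hold 6 Vmn2r pseudogenes interleaved with zinc finger genes such as Zfp600 and Zfp982. They took up 0.590 Mb, or 1.15% of the sequence of the set, and held 101 peaks (15.7% of the set) in KAT8-deficient cells and 75 (16.1%) in wild-type cells. Their density was 171 per Mb in KAT8-deficient cells and 127 per Mb in wild-type cells. Of their peaks 43.6% in the KAT8-deficient list overlapped a peak of the other list, against 35.6% of all peaks of that list, and 57.3% in the wild-type list, against 33.2%.

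The largest difference between the lists lay in a Vmn1r cluster on chromosome 7 from 20101158 to 24055691, with 99 Vmn1r genes, 86 of them protein coding, and 5.42% of the sequence of the set. It held 137 peaks of the set (49.1 per Mb) in KAT8-deficient cells and 33 (11.8 per Mb) in wild-type cells, and the next largest excess of KAT8-deficient peaks in a cluster was 18. Counting every peak between its ends, there were 207 in the KAT8-deficient list and 46 in the wild-type list. In the 2 Mb before the cluster there were 103 in the KAT8-deficient list and 114 in the wild-type list, and in the 2 Mb after it there were 118 in the KAT8-deficient list and 126 in the wild-type list. The lists had similar counts on both sides. Inside the cluster the counts were uneven, with 29 KAT8-deficient and 3 wild-type peaks in the fullest window of 250 kb, which starts 2250 kb from the first gene, and with 0 KAT8-deficient and 2 wild-type peaks in the window that starts at 3500 kb. From 3250 to 4000 kb, in the last windows with receptor genes, KAT8-deficient counts stayed at 3 or fewer and wild-type counts at 2 or fewer, so the higher KAT8-deficient count did not reach the far end of the cluster. Of 2655 windows of 1 Mb with a peak, the 3 windows from 20 to 23 Mb of chromosome 7 ranked 2, 5 and 1 by the difference of KAT8-deficient minus wild-type peaks. The window from 22 to 23 Mb held 88 KAT8-deficient peaks and 16 wild-type peaks.

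The peaks of this cluster were weak. Their median fold was 2.75 in KAT8-deficient cells and 2.73 in wild-type cells, and the highest −log10 q was 4.74 in KAT8-deficient cells and 5.33 in wild-type cells. A q-value under 0.05 was given to 53 of the 137 KAT8-deficient peaks (38.7%), against 47.0% of all peaks of that list, and to 9 of the 33 wild-type peaks (27.3%), against 46.9%. In each list 16 peaks overlapped a peak of the other list. That was 11.7% of the KAT8-deficient peaks, against 35.6% of all peaks of that list, and 48.5% of the wild-type peaks, against 33.2%. With 16 in each list, these 2 shares differ because the totals are 137 and 33. Promoters in the cluster are near-copies of each other. Of 83 promoters there, 52 had an identical copy in the cluster and 67 had a copy with at least 95% identity, against 2 and 4 of 123 Vmn1r promoters elsewhere. Whether reads that match several copies were kept is not given in the sources used here, and the part of repeated sequence in the difference was not tested.

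**Figure D4:**
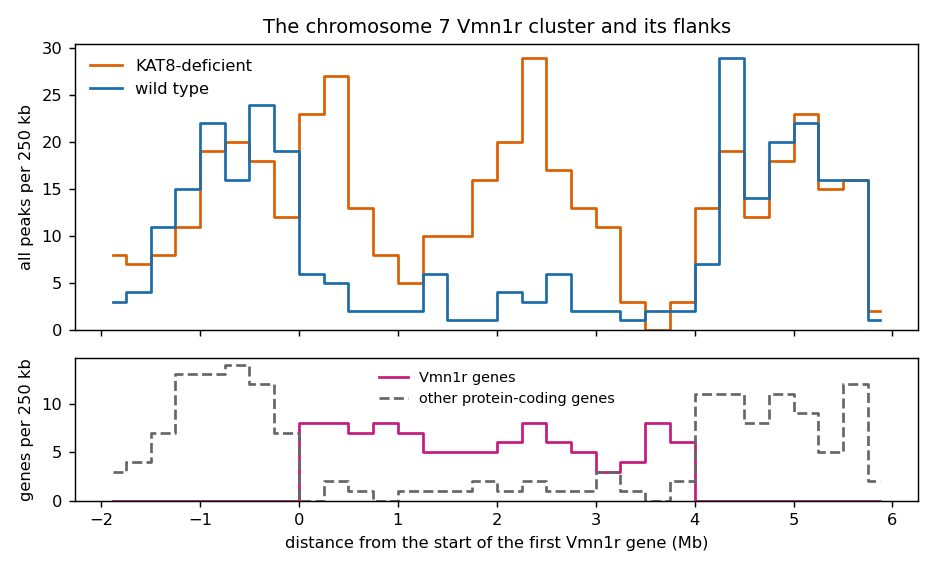
Peaks of all kinds per 250 kb along and beside the Vmn1r cluster of chromosome 7, by distance from its first gene, for both lists (upper panel), with the numbers of Vmn1r and other protein-coding genes (lower panel). Inside the cluster lie 207 KAT8-deficient and 46 wild-type peaks, and beside it the lists have similar numbers.

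Leaving out this cluster, 508 peaks remained in the KAT8-deficient list and 433 in the wild-type list. In the set, KAT8-deficient peaks over wild-type peaks came to 1.38 (1.23 to 1.56) with the cluster and 1.17 (1.03 to 1.33) without it. Leaving out the chromosome 4 pair as well, 407 KAT8-deficient and 358 wild-type peaks gave 1.14 (0.986 to 1.31). Near Olfr genes the ratio was 1.11, with an interval of 0.917 to 1.35. Over all autosomal peaks the ratio was 0.950 and in gene deserts 1.07. Among peaks of the set with −log10 q of at least 5 there were 38 in KAT8-deficient cells and 40 in wild-type cells, at a ratio of 0.950. Among peaks with a q-value under 0.05 there were 334 in KAT8-deficient cells and 208 in wild-type cells, at a ratio of 1.61 (1.35 to 1.91), and of 1.41 (1.18 to 1.69) without the chromosome 7 cluster. By count, the excess in the KAT8-deficient list was therefore made up of peaks with −log10 q under 5. Over the whole lists, 2679 KAT8-deficient and 4147 wild-type peaks reached a −log10 q of 5. At a q-value under 0.05 the whole lists held 25900 KAT8-deficient and 27288 wild-type peaks. Near-equal numbers of strong peaks, unlike in the whole lists, were not particular to the set. Gene deserts held 374 KAT8-deficient and 376 wild-type peaks with a −log10 q of at least 5. At a q-value under 0.05 deserts held 3596 KAT8-deficient and 3079 wild-type peaks. Within 1 kb of other gene ends, which the rule leaves out, 1046 KAT8-deficient and 2170 wild-type peaks reached a −log10 q of 5.

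The middle of the strength range was close to that of each whole list. The median fold of the set was 2.78 in KAT8-deficient cells and 2.93 in wild-type cells, and the median fold of all peaks was 2.78 in KAT8-deficient cells and 2.90 in wild-type cells. A q-value under 0.05 was given to 334 peaks (51.8%, Wilson interval 47.9 to 55.6) in KAT8-deficient cells, against 47.0% of all peaks of that list. In wild-type cells it was given to 208 (44.6%, 40.2 to 49.2), against 46.9% of all peaks. A −log10 q of at least 5 was reached by 38 peaks (5.89%, 4.32 to 7.98) in KAT8-deficient cells, against 4.86% of all peaks of that list, and by 40 (8.58%, 6.37 to 11.5) in wild-type cells, against 7.12%. Of these 4 shares, 3 have intervals that hold the share of the whole list, and the KAT8-deficient share under q 0.05 lies above it. The whole lists include peaks at gene ends, which the rule leaves out. On autosomes, outside the clusters and more than 1 kb from gene ends, 3.44% of KAT8-deficient and 3.92% of wild-type peaks reached a −log10 q of 5. A q-value under 0.05 was given to 42.9% of KAT8-deficient and 41.5% of wild-type peaks there. Against these values every interval but that of the wild-type share under q 0.05 lies above. Many peaks had the same fold and q, since 81 KAT8-deficient peaks of the set shared the fold 2.78 and 75 wild-type peaks shared the fold 2.69.

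The 8 strongest peaks of the set in each list all had a counterpart in the other list. Highest in both was a peak 15.6 kb from the pseudogene Vmn2r-ps140 on chromosome Y, with a fold of 26.9 in KAT8-deficient cells and 31.5 in wild-type cells. Next came a peak 4.84 kb from the pseudogene Vmn1r-ps60 on chromosome 7, with a fold of 10.8 in KAT8-deficient cells and 11.4 in wild-type cells. A peak near the pseudogene Vmn2r125 on chromosome 4 had a fold of 16.02 in KAT8-deficient cells and 13.71 in wild-type cells. A peak near Vmn1r-ps151, close to the start of chromosome 18, had a fold of 4.27 in KAT8-deficient cells and 4.84 in wild-type cells. Strength did not follow fold alone, since this broad peak had a −log10 q of 46.02 in KAT8-deficient cells and 46.65 in wild-type cells. The peak near Vmn1r-ps2 on chromosome 4 had a fold of 9.19 in KAT8-deficient cells and 6.85 in wild-type cells. Beside Vmn1r2, near the start of chromosome 4, 3 peaks had folds of 7.60, 9.07 and 6.11 in KAT8-deficient cells, and their wild-type counterparts had 8.69, 10.3 and 4.47. Of the peaks with −log10 q of at least 5, 20 of 38 in KAT8-deficient cells lay nearest a pseudogene, against 261 of 645 in the set, and 18 of 40 in wild-type cells, against 203 of 466. Of the same strong peaks, 11 of 38 in KAT8-deficient cells lay in the first 4 Mb of a chromosome, against 33 of 645 in the set. In wild-type cells 10 of 40 did, against 27 of 466. The first peak on autosomes and chromosome X starts at position 3000171. The part of repeated sequence in these strong peaks was not tested.

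An olfactory example was the peak 10.6 kb from Olfr878 on chromosome 9, with a fold of 4.48 in KAT8-deficient cells and 9.04 in wild-type cells. Another lay 16.1 kb from Olfr524 on chromosome 7, inside Cd163l1, a scavenger receptor gene of the CD163 family, with a fold of 6.25 in KAT8-deficient cells and 8.12 in wild-type cells. The strongest peaks without a counterpart had lower folds than most of these. In KAT8-deficient cells they lay near Olfr1463 (fold 4.48), Vmn2r-ps20 (3.74), Vmn2r-ps18 (3.13) and Vmn1r103 (4.27). In wild-type cells they lay near Olfr501-ps1 (fold 4.15), Vmn2r-ps19 (3.46), Olfr549 (3.91) and Olfr784 (3.91).

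The 20 kb limit of the rule cut through a locus with strong peaks. Just inside it were KAT8-deficient peaks 19857 bp from Vmn1r160 (fold 2.27) and 19873 bp from Vmn1r-ps110 (fold 3.42), and wild-type peaks 19961 bp from Olfr1350 (fold 3.18) and 19972 bp from Olfr383-ps1 (fold 2.93). Just outside it were KAT8-deficient peaks 20018 bp from Olfr1350 (fold 3.42) and 20034 bp from Vmn1r-ps2 (fold 3.60), and wild-type peaks 20126 bp from Vmn1r-ps2 (fold 4.05) and 20194 bp from Vmn2r-ps91 (fold 2.83).

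Against all peaks of its own list, sharing was lower in the KAT8-deficient set and higher in the wild-type set. Of the KAT8-deficient peaks of the set, 186 (28.8%, Wilson interval 25.5 to 32.5) overlapped a wild-type peak by at least 1 bp, against 35.6% of all KAT8-deficient peaks. Of the wild-type peaks of the set, 187 (40.1%, 35.8 to 44.6) overlapped a KAT8-deficient peak, against 33.2% of all wild-type peaks. The shared counts, 186 and 187, were nearly equal, so the 2 shares differ because the sets hold 645 and 466 peaks. They are not a result apart from that difference in counts, and the strength groups below do not remove it. All peaks include those within 1 kb of other gene ends, which the rule leaves out. On autosomes these were shared at 69.6% in the KAT8-deficient list and 62.7% in the wild-type list. Autosomal peaks outside the clusters and more than 1 kb from gene ends were shared at 28.4% (KAT8-deficient) and 26.7% (wild type). Against that background the KAT8-deficient set was not lower. Sharing rises with strength, so peaks were also compared within 10 groups of equal strength in their list. At the rates of other peaks more than 1 kb from gene ends in the same groups, 32.4% of KAT8-deficient and 30.5% of wild-type peaks of the set would be shared. Leaving out the chromosome 7 cluster, 33.5% of KAT8-deficient peaks were shared, against 34.2% at those rates, and 39.5% of wild-type peaks, against 31.1%. Without this cluster the KAT8-deficient share was thus close to the rate of equally strong peaks. With it, that rate of 32.4% still lay within the interval of the 28.8%. Leaving out the chromosome 4 pair too, 31.0% of KAT8-deficient peaks were shared, against 33.2% at those rates. For wild-type peaks the share was then 35.8% (31.0 to 40.8), against 30.7% at those rates. The interval lies just above that rate, and it holds the 33.2% of all wild-type peaks, which include those at gene ends.

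In the strongest group 67 of 78 KAT8-deficient peaks (85.9%) were shared, against 81.7% of the other peaks, and 53 of 54 wild-type peaks (98.1%), against 85.4%. In the weakest group 9 of 65 KAT8-deficient peaks (13.8%) were shared, against 14.2% of the other peaks, and 2 of 49 wild-type peaks (4.08%), against 12.7%. Families differed as well. Near Vmn1r genes 53 of 227 KAT8-deficient peaks and 53 of 106 wild-type peaks were shared, and without the chromosome 7 cluster 37 of 90 KAT8-deficient (41.1%) and 37 of 73 wild-type peaks (50.7%). Near Vmn2r genes 36.9% of KAT8-deficient and 45.8% of wild-type peaks were shared, and near Olfr genes 26.9% of KAT8-deficient and 29.9% of wild-type peaks. Without the chromosome 4 pair, the Vmn2r shares were 30.5% of KAT8-deficient and 36.6% of wild-type peaks.

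**Figure D5:**
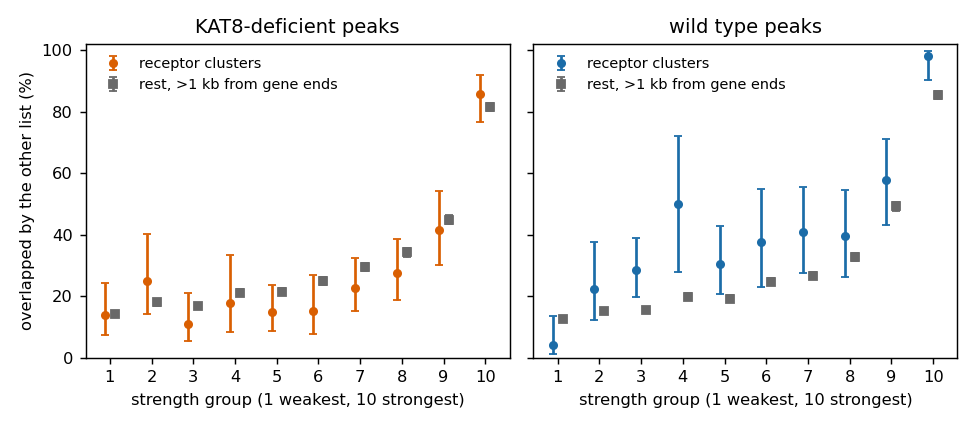
Share of peaks overlapped by the other list in 10 groups of rising strength, for peaks of the set and for other peaks more than 1 kb from gene ends, with Wilson 95% intervals, KAT8-deficient left and wild type right. Sharing reaches 85.9% in KAT8-deficient cells and 98.1% in wild-type cells in the strongest group.

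Few receptor genes carried a peak at their ends. Of 2065 receptor genes, 56 (2.71%) in KAT8-deficient cells and 44 (2.13%) in wild-type cells had any part of a peak of the set within 1 kb of an annotated end, 16 of them in both lists. The same was true of 46.4% of other protein-coding genes in KAT8-deficient cells and 50.3% in wild-type cells, counted over all peaks. Annotated receptor genes have a median length of 945 bp, so many models hold little more than the coding part, and their true start may lie farther away. Among protein-coding Vmn1r genes 9 of 229 in KAT8-deficient cells and 1 of 229 in wild-type cells had such a peak. Of the 9, 8 lay in the chromosome 7 cluster, and outside it each list had 1, at Vmn1r48. The strongest pair was at Vmn2r2 on chromosome 3, where the peak from 64171321 to 64172755 had a fold of 6.37 in KAT8-deficient cells and its wild-type counterpart had 6.02. The wild-type summit itself lay inside the neighbouring gene Vmn2r1, 1584 bp from the nearest receptor gene end. At Vmn2r29, whose CG-rich promoter is printed above, the fold was 6.12 in KAT8-deficient cells and 5.26 in wild-type cells. The others with a peak in both lists and a q-value under 0.05 in at least 1 of them included the odorant receptor Olfr571, with a fold of 3.20 in KAT8-deficient cells and 3.66 in wild-type cells, and the pseudogene Olfr928-ps1, with 3.20 in KAT8-deficient cells and 4.64 in wild-type cells. At the pheromone receptor Vmn1r48 the fold was 2.99 in KAT8-deficient cells and 3.66 in wild-type cells. At Olfr1333 and Vmn2r-ps134 the KAT8-deficient and wild-type peaks did not overlap each other.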

How the data were processed

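The submitters' processing notes name mm10, DiffBind, MACS2 2.2.7.1 and Bowtie 0.12.8, without their roles. The deposited peak lists give each peak's score, its fold (a ratio to the caller's own background) and the −log10 of its p-value and q-value. The sources used here give no calling settings, control library, read totals or treatment of reads with several matches. Gene positions and promoter sequences came from RefSeq tables of GRCm38.p6, the assembly behind mm10. Genes on scaffold coordinates (340, among them 8 receptor genes) were left out. Autosomal length is the span between the first and last annotated gene or peak. No genome sequence was used here.

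Peaks were assigned by summit, as column 2 plus column 10. Densities carry exact Poisson intervals, ratios Poisson intervals on the log scale, and shares Wilson intervals. Overlap means at least 1 bp. Strength groups are 10 equal parts of each list by −log10 q. Named peaks were the 8 highest by −log10 q in each list, the 4 highest without a counterpart, and those just inside and outside 20 kb. Named receptor genes had a peak within 1 kb of an end, measured from the edges of the peak, in both lists with q under 0.05 in at least 1. The members and lists were chosen with earlier results of these data known. Scripts were tested on simulated data. Python 3.11.15, numpy 2.4.6, pandas 2.3.3, scipy 1.17.1 and matplotlib 3.10.9 were used.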

Additional observations from a re-analysis of the deposited data

How the results depend on the processing

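No paired analysis was possible because each genotype has 1 library and the labels carry no replicate numbers. Of 78 alternative values, 36 stayed within the interval of the reported one, 41 moved out of it, which are given here, and 1 reversed. The settings that leave out clusters were chosen after seeing the data. The densities are already those of the autosomes, so the setting with autosomes only applies to the shares. The cause of the moves was not tested.

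The KAT8-deficient density over the autosomal average became 0.465 within 5 kb of a receptor gene, 0.665 within 50 kb, 0.620 at q under 0.05, 0.674 at −log10 q of at least 5, 0.469 with protein-coding receptor genes only, 0.468 without the chromosome 7 Vmn1r cluster, 0.479 without the chromosome 4 clusters and 0.380 without both. The wild-type density became 0.301 within 5 kb, 0.467 within 50 kb, 0.458 at −log10 q of at least 5, 0.298 with protein-coding receptor genes only, 0.323 without the chromosome 4 clusters and 0.313 without both.

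Over sequence more than 1 kb from gene ends, the KAT8-deficient density became 0.546 within 5 kb, 0.780 within 50 kb, 0.792 at q under 0.05, 0.807 for the strongest 20000 peaks, 0.549 both with protein-coding receptor genes only and without the chromosome 7 cluster, 0.562 without the chromosome 4 clusters and 0.445 without both. It reversed to 1.09 (0.789 to 1.51) at −log10 q of at least 5. The wild-type density became 0.355 within 5 kb, 0.551 within 50 kb, 0.963 at −log10 q of at least 5, 0.517 for the strongest 20000 peaks, 0.351 with protein-coding receptor genes only, 0.381 without the chromosome 4 clusters and 0.369 without both.

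For the shares, the q limits and the limit to the strongest 20000 peaks were put on both lists, so a counterpart had to pass them too. The KAT8-deficient share overlapped became 71.1% at −log10 q of at least 5, 32.7% for the strongest 20000 peaks, 23.9% with protein-coding receptor genes only, 33.5% without the chromosome 7 cluster, 19.1% with at least 50% of both peaks and 35.3% with the nearest peak within 1 kb. The wild-type share became 46.2% at q under 0.05, 67.5% at −log10 q of at least 5, 53.9% for the strongest 20000 peaks, 35.8% without both, 26.6% with at least 50% of both peaks and 47.0% with the nearest peak within 1 kb. Against the whole other list, 36 of 38 KAT8-deficient and 40 of 40 wild-type peaks with −log10 q of at least 5 had a counterpart.

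Peak counts follow library depth and background, which are not known here. Peaks in repeated receptor copies depend on the treatment of reads with several matches, which the sources used here do not give. A difference between the genotypes and a difference between the 2 libraries cannot be told apart.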

Other observations

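Other gene families that are silent in macrophages served as a comparison. Genes of the Taar (trace amine receptors of the nose), Tas2r (bitter taste receptors), Krtap (hair keratin-associated proteins) and Defb (beta-defensins) families number 155 in the table. Their surroundings, 3.43 Mb by the same rule, held 25 peaks in KAT8-deficient cells (7.29 per Mb, interval 4.71 to 10.8) and 31 in wild-type cells (9.03 per Mb, 6.14 to 12.8). In KAT8-deficient cells the receptor clusters held 1.75 times that density (1.17 to 2.60), and in wild-type cells 1.01 times (0.701 to 1.45). Of these peaks 4 of the 25 KAT8-deficient and 4 of the 31 wild-type ones were shared, and 1 KAT8-deficient and 2 wild-type peaks reached a −log10 q of 5.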
